A study of Mus musculus with 5 samples.

Results

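The genes described here are the rows of the major histocompatibility complex (MHC) region of the mouse that are not histocompatibility genes themselves. They were taken from a table of RNA levels in mouse embryonic stem (ES) cells, as every row on chromosome 17 that starts between the start of H2-K1 (34132957) and the end of H2-D1 (35404442) in the mm9 build. Rows named H2- were left out, and so were the peptide loading genes Tap1, Tap2 and Tapbp, the immunoproteasome genes Psmb8 and Psmb9, the heat shock genes Hspa1a and Hspa1b and ribosomal protein genes. Of 100 rows in the window, 14 were H2- rows and 6 were other rows left out, which leaves 80 members of the 24016 genes in the table. Of these, 66 were protein-coding, 12 were noncoding RNAs (9 of them microRNA rows), 1 was a small nucleolar RNA and 1 a pseudogene.

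RNA was measured in 5 libraries, 1 for each labelled line. NOD, a strain prone to autoimmune diabetes, gave 2 libraries (replicates 1 and 5), and B6 (C57BL/6), NZB (also labelled as autoimmune-prone) and v6.5 (a hybrid line whose strain is labelled 129SvJae6C57BL6) gave 1 each. All lines came from mouse embryos, and the study grew them in 2i medium, which holds inhibitors of MEK and GSK3, without feeder cells. No age, genetic change or treatment other than 2i was given for any group. The header of the table shows the command that made it, with a pair of directories for B6 but no v6.5 directory, so v6.5 is known by its label alone. The same command joins 5 and 6 in the name of the NOD replicate 5 run, which may therefore hold more than 1 line. Nothing in the labels says that the lines were cultured or sequenced separately, so p-values measure spread between libraries only. In the comparisons between strains that spread came from the 2 NOD libraries alone, with information shared across genes. B6, NZB and v6.5, with 1 library each, added none to it. In NOD against B6 with v6.5 the spread between B6 and v6.5 was used as well.

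Classical histocompatibility genes make up a minority of the genes in this region. Between and around them lie complement components, the tumour necrosis factor (TNF) cluster, a cluster of Ly6 surface protein genes, butyrophilin-like genes, and many genes that nearly every cell uses for transcription, RNA processing, translation and protein quality control. NOD, B6 and NZB mice carry different haplotypes of the complex, and the genes of one haplotype are usually inherited together.

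Whole reads recovered from the table summed to between 7713133 and 21387796 per library. The ribosomal precursor Rn45s took 41.4% of the B6 reads and between 1.95% and 14.3% of the reads in the 4 other libraries. Levels are therefore given as normalised reads, the deposited value divided by a composition factor (trimmed mean of M values, TMM), which was 0.642 for B6 and between 1.03 and 1.23 for the others. Without that factor the median log2 fold change of all genes stood at 0.77 in NOD against B6, 0.89 in NZB against B6, 0.67 in v6.5 against B6 and 0.45 in NOD against B6 with v6.5. With it these medians lay between -0.03 and 0.03, and all changes are given relative to the TMM scale. All 8 ES cell markers examined had reads in all 5 libraries, and their summed level was 17639.5 in NOD replicate 1, the lowest, and between 33419.9 and 44730.0 in the 4 others. Fibroblast markers summed to 8938 normalised reads in NZB and 5926 in B6, against 1613 in v6.5 and 238 and 394 in NOD replicates 1 and 5. Of the 9 fibroblast markers, 9 had reads in B6 and in NOD replicate 5, 8 in NZB, and 7 in v6.5 and in NOD replicate 1. Dcn was at 0 in NZB, v6.5 and NOD replicate 1, and Lum in v6.5 and NOD replicate 1.

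Mean levels of the members ranged from 1572 normalised reads per kb to no reads at all, and they were not ranked against genes outside the region. In level per kb of exon, 22 of the 80 members averaged more than 100 normalised reads per kb over the 5 libraries. The highest was 1110038B12Rik, a noncoding RNA that hosts the small nucleolar RNA Snord52, at 1572 normalised reads per kb. Ddx39b, an RNA helicase for messenger RNA export, followed at 1360, and Brd2, a bromodomain protein that reads acetylated histones, at 1046. Next came Mir8094 at 856, Csnk2b, the regulatory subunit of casein kinase 2, at 791, and Clic1, an intracellular chloride channel protein, at 770. Lsm2, a protein of the U6 spliceosomal particle, stood at 508 per kb, the zinc transporter Slc39a7 at 479, the chaperone Bag6 at 457, and the valyl-tRNA synthetase Vars at 413. At the other end, 6 members had no read in any library: Tnf, Prrt1 and the microRNA rows Mir6971, Mir6972, Mir6973a and Mir6974.

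**Figure D1:**
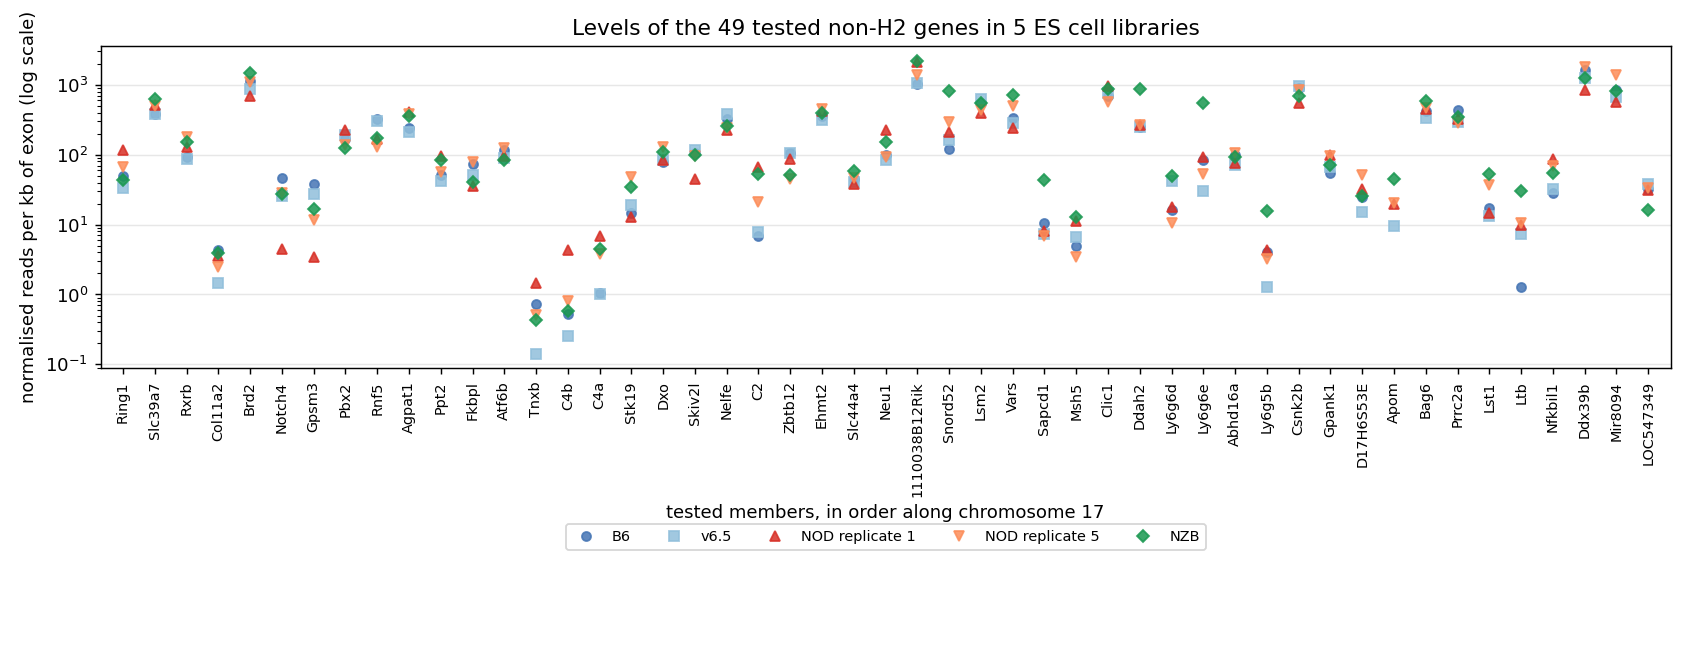
Normalised reads per kb of exon (log scale) for the 49 tested members, in their order along chromosome 17, with 1 symbol per library. The highest points belong to 1110038B12Rik (1572 on average), Ddx39b (1360) and Brd2 (1046), and the NZB symbols stand above the others from Sapcd1 to Ly6g5b except at Clic1 and Abhd16a. The B6 value of Apom is 0 and cannot be drawn.

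Enough reads for a test were present for 49 members, 46 of them protein-coding. The other 31 had at most 15 reads in any library and at most 41 in all 5 together. All 6 butyrophilin-like members were among them, with between 1 and 11 reads in total. Among the lists of genes by role, all 11 members for transcription and chromatin and all 7 for RNA processing and translation were tested, and 8 of 9 for protein folding, degradation and phosphorylation. Only 3 of 8 Ly6 and immunoglobulin-like members, 3 of 4 complement members and 2 of 5 members of the TNF cluster could be tested.

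The reading of Mir8094 touches a protein-coding neighbour, and its sequence is shown for that reason. The row lies inside Ddx39b on the same strand, and 92 of the 117 bases of its hairpin occur in the Ddx39b transcript. In the RefSeq hairpin (GRCm38.p6, chr17:35251289-35251405, plus strand) the capitals mark those 92 bases, and in the mature microRNA (chr17:35251314-35251334) they mark the seed, bases 2 to 8.
Mir8094 hairpin: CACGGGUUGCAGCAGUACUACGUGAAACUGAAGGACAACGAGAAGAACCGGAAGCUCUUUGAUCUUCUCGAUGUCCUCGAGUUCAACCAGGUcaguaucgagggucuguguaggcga
mmu-miR-8094 mature: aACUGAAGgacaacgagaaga
The whole mature sequence falls within the shared bases, and the libraries were of fragmented poly-dT selected RNA. Reads of Mir8094 and of Ddx39b could not be told apart over this stretch. Snord52 lies in the same way inside 1110038B12Rik.

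Promoters of the members that had enough reads to test held more CpG dinucleotides than those of the members that did not. A RefSeq promoter of 300 bases (250 before and 50 after the start, GRCm38.p6) matched 54 of the 80 members. A gene with several promoters was represented by its window with the most CpG, both among the members and in the set called all promoters. This choice favours CpG-rich windows. The ratio of observed to expected CpG had a median of 0.811 in the 34 tested members and of 0.212 in the 20 that were not tested, beside 0.413 over all 27025 promoters. The GC box GGGCGG, searched on both strands, was found in 22 of the 34 tested and 4 of the 20 untested members, and in 37.3% of all promoters. CCAAT was found in 8 and 9 members of the same sets and in 37.4% of all promoters, TATAAA in 2 and 4 and in 13.7%, and CACGTG in 2 and 0 and in 7.39%. These shares are descriptions of short letter matches, and no test was made of them.

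**Figure D2:**
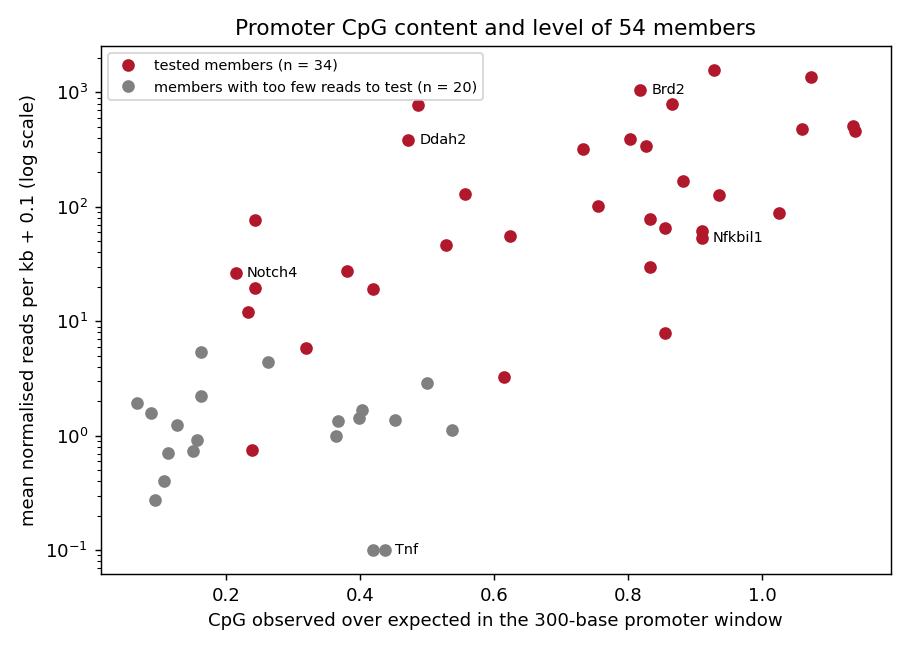
Ratio of observed to expected CpG in the promoter window against the mean level (normalised reads per kb plus 0.1, log scale) of 54 members, 34 tested and 20 with too few reads to test. Brd2 lies at a ratio of 0.818, and the highest ratio of a member that was not tested is 0.538.

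The promoters of 4 members are printed as examples, with every CpG in capitals. Their ratios of observed to expected CpG were 0.818 in Brd2, 0.472 in Ddah2, 0.436 in Tnf and 0.214 in Notch4, inside a range of 0.066 to 1.14 over the 54 members. They do not show the contrast of the 2 sets: Tnf, which was not tested, lay above the upper quartile of the untested members (0.407). Brd2 has 32 CpG sites (chr17:34122558-34122857, minus strand) and was among the most abundant members. Ddah2 has 12 (chr17:35058785-35059084, plus strand), Notch4 has 5 (chr17:34564045-34564344, plus strand), and Tnf, which had no read, has 11 (chr17:35201958-35202257, minus strand). All 4 positions are in GRCm38.p6.
Brd2: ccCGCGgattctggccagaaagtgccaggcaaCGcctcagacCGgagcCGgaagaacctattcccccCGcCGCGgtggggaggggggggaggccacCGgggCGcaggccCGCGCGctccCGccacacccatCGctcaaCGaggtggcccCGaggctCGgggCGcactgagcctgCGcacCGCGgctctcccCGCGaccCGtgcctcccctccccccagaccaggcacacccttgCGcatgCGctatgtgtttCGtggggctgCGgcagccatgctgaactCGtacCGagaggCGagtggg
Ddah2: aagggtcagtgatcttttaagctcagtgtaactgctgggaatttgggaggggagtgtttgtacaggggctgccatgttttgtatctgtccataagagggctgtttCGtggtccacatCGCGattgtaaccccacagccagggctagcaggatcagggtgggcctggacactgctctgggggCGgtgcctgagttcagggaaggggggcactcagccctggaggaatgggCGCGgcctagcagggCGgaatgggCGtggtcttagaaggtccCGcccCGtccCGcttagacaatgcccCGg
Notch4: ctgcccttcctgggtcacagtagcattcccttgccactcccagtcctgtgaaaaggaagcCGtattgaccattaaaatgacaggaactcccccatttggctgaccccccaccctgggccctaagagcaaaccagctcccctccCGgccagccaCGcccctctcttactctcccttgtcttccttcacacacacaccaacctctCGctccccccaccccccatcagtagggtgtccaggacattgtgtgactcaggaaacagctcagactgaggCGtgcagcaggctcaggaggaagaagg
Tnf: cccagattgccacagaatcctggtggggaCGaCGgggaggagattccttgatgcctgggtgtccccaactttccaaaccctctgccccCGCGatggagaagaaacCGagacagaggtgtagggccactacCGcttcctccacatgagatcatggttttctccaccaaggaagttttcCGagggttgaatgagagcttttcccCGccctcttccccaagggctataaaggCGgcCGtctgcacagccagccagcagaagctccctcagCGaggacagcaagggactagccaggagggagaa
Of the 4 motifs searched, the Brd2 and Notch4 windows held none. The Ddah2 window held 3 GC boxes, and the Tnf window held 1 GC box and 1 TATAAA.

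The study's main question was how NOD ES cells differ from B6. With limma, 0 of the 49 tested members passed an adjusted p of 0.05 in NOD against B6, where 3.13% of the 14280 genes tested did. edgeR and DESeq2 on the recovered reads also called 0 members, where they called 8.1% and 5.47% of all genes. At an unadjusted p under 0.05, limma had 4 of 49 members (8.16%) and 2696 of all genes (18.9%). The 4 were Apom, C2, Gpsm3 and Notch4. The median log2 fold change of the members was 0.07, beside 0.01 over all genes. The smallest log2 fold change called in any gene was 1.69 in size, and no gene with a smaller one was called in this comparison.

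Taking B6 with the library labelled v6.5 gave a group of 2 libraries on each side. Here limma again called 0 of 49 members, beside 9.24% of all genes, edgeR called 0 beside 8.53%, and DESeq2 called 1 of 44, which was C2, beside 17%. Unadjusted, 9 of 49 members (18.4%) and 4275 of all genes (29.9%) had a limma p under 0.05. Both NOD libraries were above both B6 and v6.5 in 18 of the 49 members (36.7%), beside 30.7% of all genes tested, and below both in 7 (14.3%), beside 29.6%. The median over members was 0.25, and over all genes 0.03.

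Of the 4 complement genes of the region, C2, C4a and C4b had higher values in both NOD libraries than in B6 and v6.5 and Cfb had lower ones, and none passed the limma threshold. They are complement genes, and complement is the cascade that tags and lyses microbes, with C2 as a subunit of the classical pathway convertase. C2 (chr17:34999547-35019045 in mm9, minus strand) stood at 18.3 normalised reads in B6, 20.3 in v6.5, 172 in NOD replicate 1, 55.7 in NOD replicate 5 and 139 in NZB. The NOD and NZB libraries did not overlap with B6 and v6.5. Of all genes tested, 30.7% had both NOD libraries above B6 and v6.5 and 29.6% had both below. The share in which NZB sided with NOD was not counted. The mean of NOD was 114 ± 82.4 (SD, n = 2), which is 6.23 times the B6 value, although the NOD lines themselves differed 3.09-fold. The log2 fold change was 2.36 ± 0.89 (SE) in NOD against B6 (limma adjusted p = 0.181) and 2.29 ± 0.63 in NOD against B6 with v6.5 (limma adjusted p = 0.0594, DESeq2 adjusted p = 0.00473). In NZB against B6 it was 2.86 ± 1.03 (limma adjusted p = 0.388).

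C4a and C4b are neighbouring copies of the C4 gene, and 35.2% of the 50-base stretches of the C4a transcript occur in C4b, so their reads could be split between them. C4a stood at 5.64 normalised reads in B6, 5.41 in v6.5, 36.6 and 19.9 in NOD replicates 1 and 5 and 23.7 in NZB. Again the 3 libraries of NOD and NZB were above B6 and v6.5, and the log2 fold change of NOD against B6 with v6.5 was 2.10 ± 0.71 (limma adjusted p = 0.0958). C4b was at 2.82 in B6, 1.35 in v6.5, 22.9 and 4.36 in NOD and 3.09 in NZB, from 30 reads in all. Only NOD replicate 1 stood clearly apart, and with 2 reads in B6 the ratio of pooled NOD reads to B6 was 3.13 (exact 95% interval 0.778 to 27.4, counting error only). Cfb, the factor B of the alternative pathway and the next gene beside C2, was not higher in NOD by its values, at 5.64 in B6, 4.06 in v6.5, 3.05 and 1.45 in NOD and 5.15 in NZB, and its 17 reads were too few to test. C2 shares 58.0% of its 50-base stretches with the overlapping gene model Gm20547, and Cfb shares 81.4%. In these bulk libraries, fewer cells with a transcript and less of it per cell cannot be told apart.

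**Figure D3:**
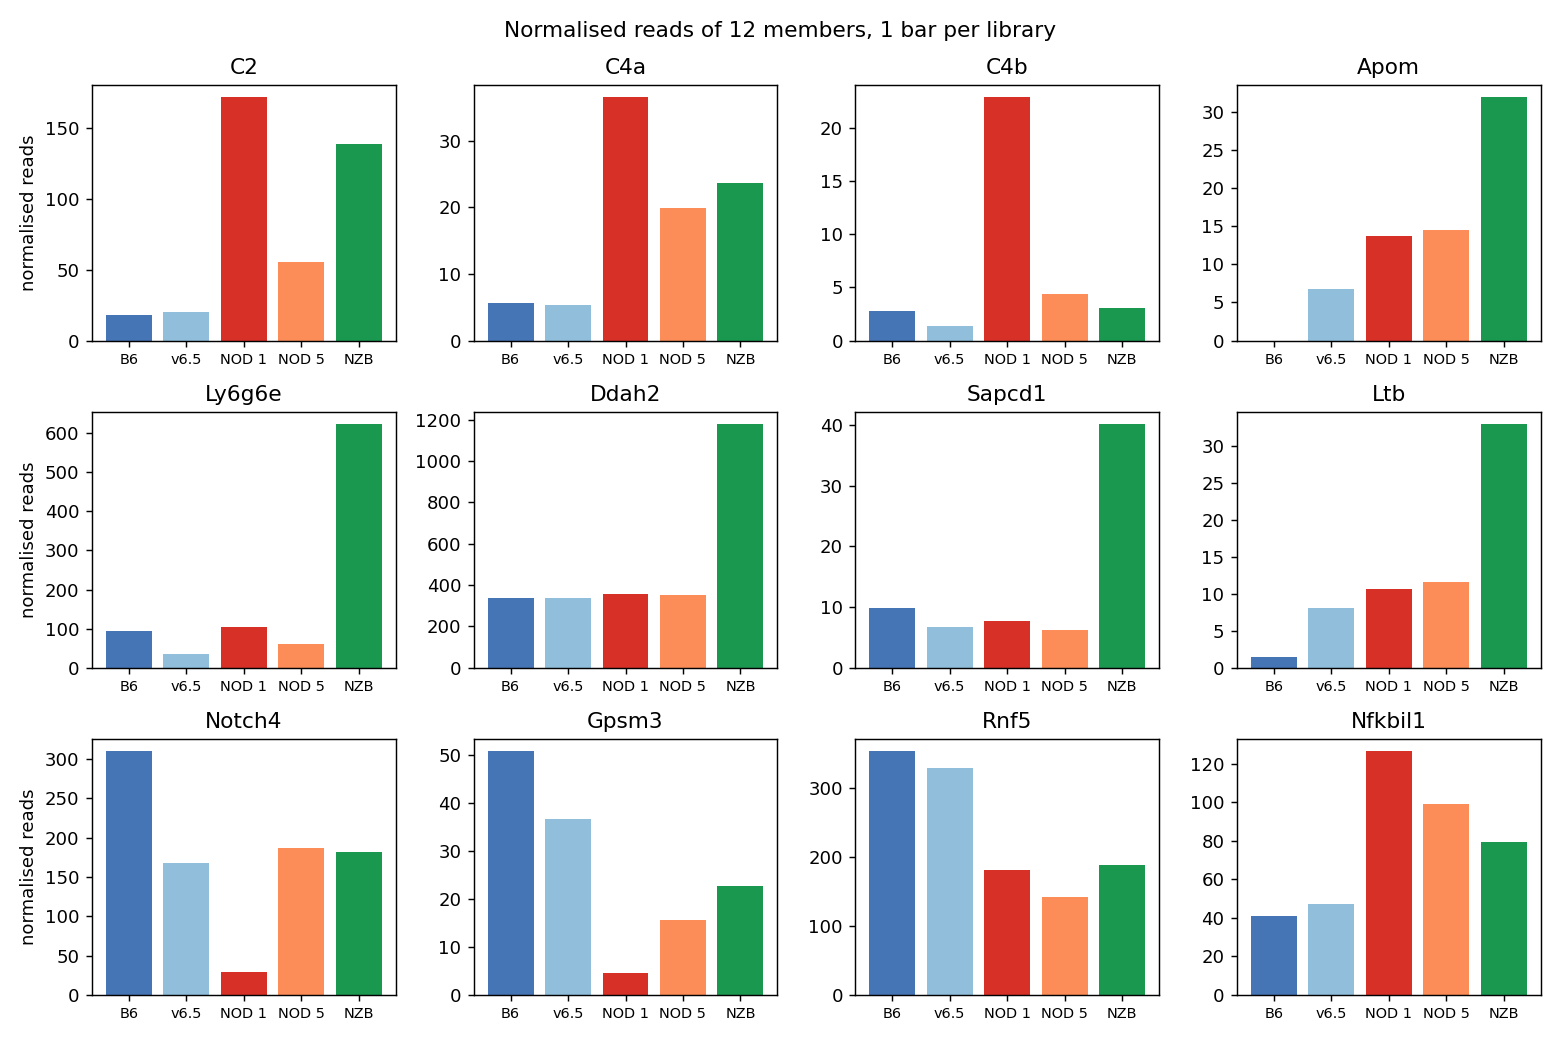
Normalised reads of 12 members, 1 bar per library, each panel with its own axis from 0. C2 and C4a are taller in both NOD libraries and in NZB than in B6 and v6.5, Ly6g6e, Ddah2 and Sapcd1 are tallest in NZB, and Notch4 and Gpsm3 are lowest in NOD replicate 1.

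In the TNF cluster, Tnf, Lta and Aif1 were nearly silent, while Ltb and Lst1 had enough reads to test. TNF and the lymphotoxins are cytokines best known from leukocytes, and Lst1 and Aif1 are expressed in leukocytes as well. Tnf had 0 reads in every library, which allows a level of up to 1.45 normalised reads in the deepest library, NOD replicate 5, and 4.57 in NOD replicate 1 (3 reads, counting error only). Lta had 7 reads in all and Aif1 had 6. Aif1 was at 4.22 in B6, 2.71 in v6.5, 1.03 in NZB and 0 in both NOD libraries.

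Ltb, the membrane-bound lymphotoxin subunit, was at 1.40 normalised reads in B6, from 1 read, then 8.12 in v6.5, 10.7 and 11.6 in NOD and 32.9 in NZB. B6 was the lowest and NZB the highest. Against the single B6 read the ratio was 8.10 for NOD (exact 95% interval 1.35 to 330.0) and 23.4 for NZB (3.91 to 953), and the limma adjusted p was 0.277 and 0.347. Lst1 was at 7.04 in B6, 5.41 in v6.5, 6.10 and 15.0 in NOD and 21.6 in NZB, so the NOD lines straddled B6. The summed level of the leukocyte markers was 1029 in B6, with reads for 10 of 10, between 320 and 364 in v6.5 and NOD, and 121 in NZB. The part of leukocyte content in the values of Ltb and Lst1 was not tested. Ptprc, Tyrobp and Lyz2 were at 0 in NZB and in NOD replicate 1, where Csf1r was at 0 too, Tyrobp and Lyz2 were at 0 in NOD replicate 5, and Tyrobp in v6.5.

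Apom stood at opposite ends in B6 and NZB. Apom, an apolipoprotein of high-density lipoprotein that carries sphingosine 1-phosphate, had 0 reads in B6. It was at 6.76 normalised reads in v6.5, 13.7 and 14.5 in NOD and 31.9 in NZB. Taking 3 reads as the B6 floor, it was at least 3.35-fold higher in NOD and at least 7.56-fold higher in NZB, with limma adjusted p of 0.0833 and 0.185. The library labelled v6.5 lay between B6 and the rest.

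Nfkbil1, a nuclear protein with ankyrin repeats related to inhibitors of NF-kappaB, lies next to the TNF cluster. It was at 40.8 in B6, 47.3 in v6.5, 126 and 99.3 in NOD and 79.3 in NZB. Both NOD libraries were above all others. Its log2 fold change was 1.44 ± 0.74 in NOD against B6 (limma adjusted p = 0.33) and 1.33 ± 0.46 against B6 with v6.5 (limma adjusted p = 0.101). Ring1, a Polycomb ubiquitin ligase, was also higher in both NOD libraries than in the 3 others, at 101.3 in B6, 67.6 in v6.5, 235 and 136 in NOD and 88.5 in NZB. Agpat1, which makes phosphatidic acid, was at 521 in B6, 468 in v6.5, 881 and 825 in NOD and 776 in NZB, so that NOD and NZB did not overlap with B6 and v6.5. Its log2 fold change of NOD against B6 with v6.5 was 0.79 ± 0.26 (limma adjusted p = 0.0912).

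Members lower in NOD were led by Gpsm3, Notch4 and Rnf5, which lie close to each other. Pbx2 and Ager lie between Gpsm3 and Rnf5 and did not follow. Pbx2 was at 474 normalised reads in B6, 526 in v6.5, 629 and 382 in NOD and 353 in NZB. Ager, which had too few reads to test, was at 4.22 in B6 and at 12.2 and 7.27 in NOD. Rnf5, a ubiquitin ligase of the endoplasmic reticulum membrane, was at 353 normalised reads in B6, 329 in v6.5, 181 and 142 in NOD and 188 in NZB. B6 and v6.5 did not overlap with the 3 others. In NOD against B6 the log2 fold change was -1.13 ± 0.54 (limma adjusted p = 0.283) and -1.08 ± 0.33 against B6 with v6.5 (limma adjusted p = 0.0785).

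Notch4, a Notch receptor best known from endothelium, and Gpsm3, a regulator of G protein signalling that is the next gene on the same strand, both differed between the NOD lines. Notch4 was at 310 in B6, 168 in v6.5, 29.0 in NOD replicate 1, 187 in NOD replicate 5 and 181 in NZB. NOD replicate 1 was 6.44-fold below NOD replicate 5, which lay beside v6.5 and NZB. NOD replicate 1 was also the library with the lowest sum of ES cell markers, and the part of that in its values was not tested. The log2 fold change of NOD against B6 was -2.05 ± 0.91 (limma adjusted p = 0.25), and it was -0.71 without NOD replicate 1 and -3.38 without NOD replicate 5. Gpsm3 was at 50.7 in B6, 36.5 in v6.5, 4.57 and 15.5 in NOD and 22.6 in NZB, so both NOD libraries were the lowest. Its log2 fold change was -2.43 ± 1.05 (limma adjusted p = 0.236). Of the 50-base stretches of the Gpsm3 transcript, 13.8% occur in Pbx2.

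Skiv2l and Zbtb12 completed the 5 lowest members in NOD against B6. Skiv2l, the helicase of the Ski complex that feeds RNA to the exosome, was at 414 in B6, 453 in v6.5, 175 and 378 in NOD and 388 in NZB, and only NOD replicate 1 stood apart. Zbtb12, a zinc finger protein, was at 191 in B6, 192 in v6.5, 162 and 80.9 in NOD and 92.6 in NZB. On deposited totals in place of the TMM scale, the log2 fold changes of Zbtb12 and Skiv2l in NOD against B6 turned to 0.033 and 0.092. On the TMM scale, Zbtb12 in NZB against B6 was at -1.04 ± 0.77 on the log2 scale (limma adjusted p = 0.753). Neu1, the lysosomal sialidase, was the reverse case between the NOD lines, at 859 in replicate 1 and 360.0 in replicate 5, beside 374 in B6.

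Read by role, the lists with the most tested members had medians between -0.16 and 0.22 in NOD against B6. In either direction, 0 members of any list passed the limma threshold. The lists are broad, and some members have another main role. Of the 11 members for transcription and chromatin, 5 had a positive log2 fold change, with a median of -0.08 and a range of -2.05 (Notch4) to 1.44 (Nfkbil1). The low end of that range is thus set by a receptor gene. Of the 7 members for RNA processing and translation, 4 were positive, with a median of 0.04 and a range of -0.68 (Skiv2l) to 0.82 (Gpank1). For protein folding, degradation and phosphorylation 4 of 8 were positive, with a median of -0.16 and a range of -2.43 (Gpsm3) to 0.57 (Neu1). That list also holds Gpsm3, a regulator of G protein signalling, and Clic1, a chloride channel protein, so its values do not describe protein folding alone. For lipid, steroid, nitric oxide and ion metabolism 4 of 6 were positive, with a median of 0.22. Their range was -0.16 (Abhd16a) to 3.92 (Apom, whose fitted value depends on the pseudocount). All 3 tested complement members were positive, with a median of 2.08. Both tested TNF cluster members were positive, and the 3 tested Ly6 members lay between -0.25 and -0.08.

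The members with too few reads to test were described by their values only. Ager, the receptor for advanced glycation end products, had the most reads, 41, and was at 4.22 normalised reads in B6, 9.47 in v6.5, 12.2 and 7.27 in NOD and 8.24 in NZB. Egfl8, a secreted protein with EGF-like repeats, was at 9.85 in B6, 5.41 in v6.5, 1.52 and 2.91 in NOD and 5.15 in NZB. Atp6v1g2, a subunit of the vacuolar proton pump known from neurons, was at 5.64 in B6, 4.06 in v6.5, 1.52 and 1.45 in NOD and 8.24 in NZB. In Egfl8 and Atp6v1g2 both NOD libraries were the lowest, but all values lay near the floor of 3 reads, which is 4.22 normalised reads in B6. Cyp21a1, the steroid 21-hydroxylase of the adrenal cortex, had 1 read in all. Hspa1l, a heat shock protein known from the testis, had 10.

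**Figure D4:**
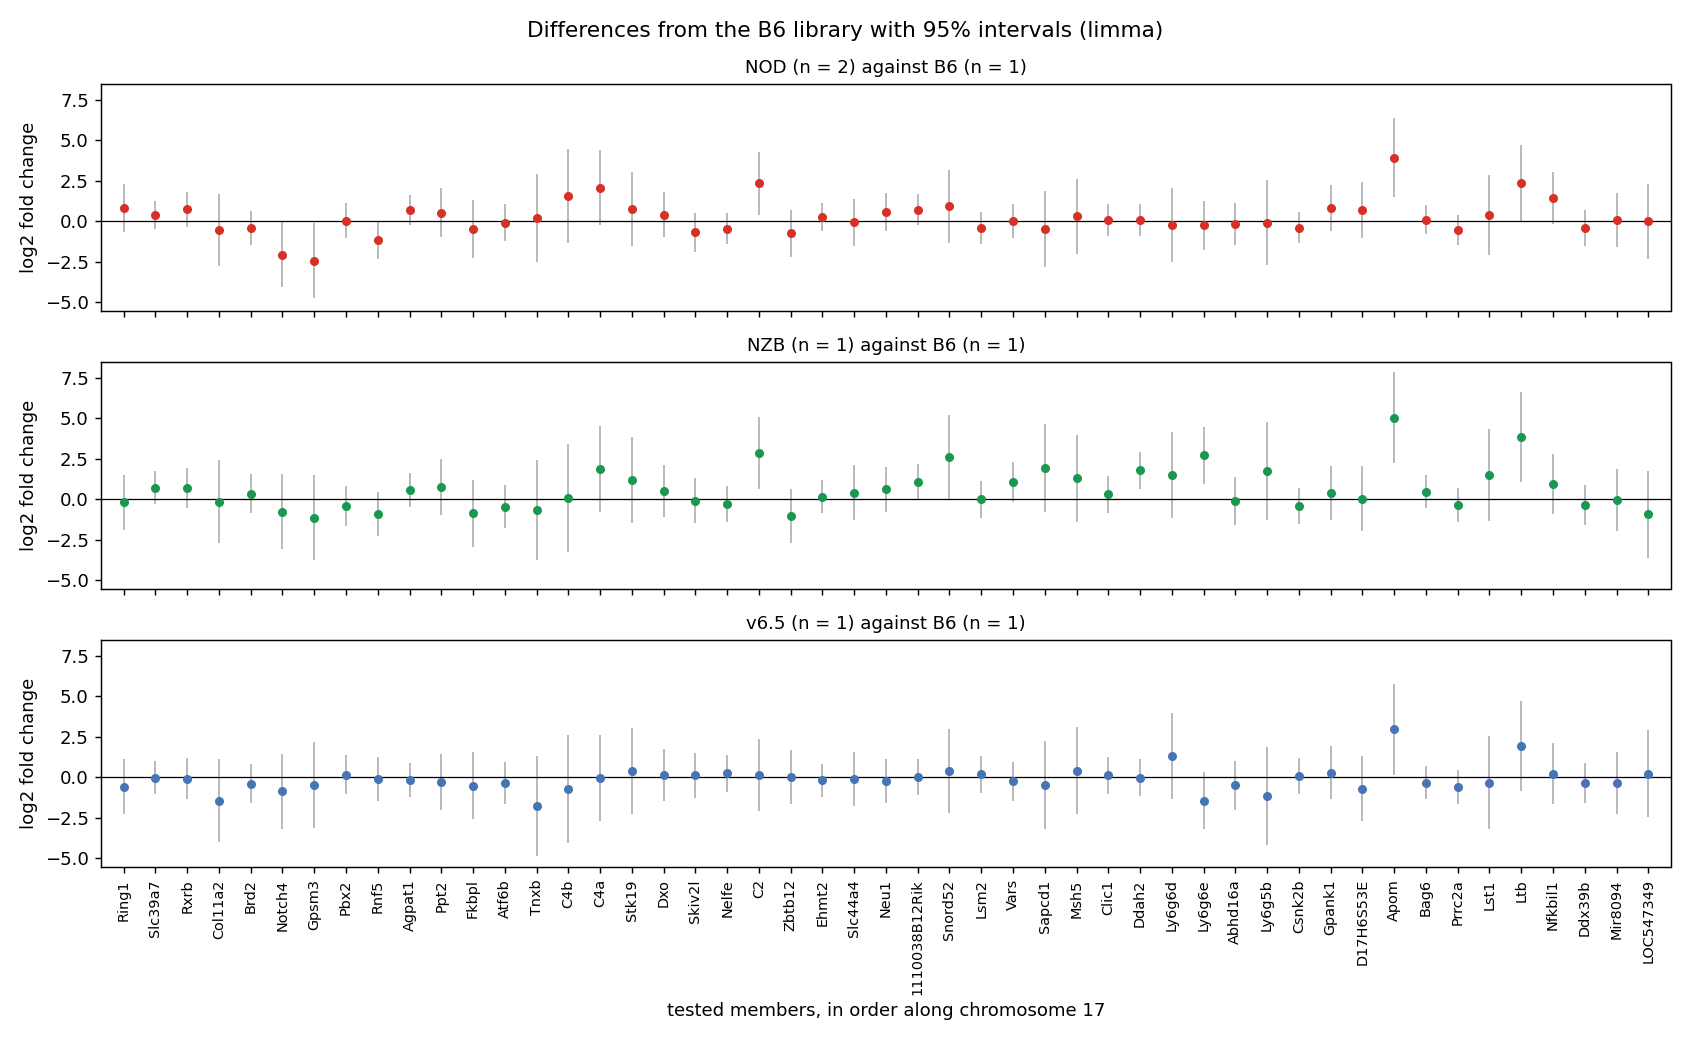
Log2 fold change from the B6 library (limma, TMM scale) of the 49 tested members in their order along chromosome 17, for NOD (n = 2), NZB (n = 1) and v6.5 (n = 1), with 95% intervals. In NZB the points from Sapcd1 to Ly6g6e lie at or above 0, with Ly6g6e at 2.71 and Ddah2 at 1.79. The Apom points depend on the pseudocount, since B6 had no read.

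The NZB library was the highest of the 5 in 16 of the 49 tested members (32.7%), beside 15.5% of all genes tested, and the lowest in 3 (6.12%), beside 16.7%. With limma, 0 of 49 members passed in NZB against B6, beside 0.14% of all genes, and 0 of 49 in NOD against NZB, beside 0.616%. edgeR called 1 member in NZB against B6 (Ly6g6e) and 2 in NOD against NZB (Ly6g6e and Ddah2), beside 2.04% and 2.58% of all genes. DESeq2 called 0 of 37 and 1 of 44 (Ly6g6e), beside 1.27% and 1.62%. Unadjusted limma p-values under 0.05 numbered 5 and 3 of 49 members (10.2% and 6.12%), beside 9.24% and 8.0% of all genes. The member median was 0.39 in NZB against B6, beside -0.03 over all genes, and -0.23 in NOD against NZB, beside 0.02.

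Of the 16 tested members that were highest in NZB, 6 lay together in the Ly6 part of the region. Between Sapcd1 and Ly6g5b (17: 35162920 to 35252345 in mm9, a stretch chosen after the values were seen) lie 13 members. Its end genes, Sapcd1 and Ly6g5b, were themselves highest in NZB, so the share inside it follows in part from that choice and is a description only. NZB was highest in 6 of the 8 tested, beside 32.7% of all tested members and 15.5% of all genes tested, and in 9 of all 13. The untested members among those 9 were G6b, G6bos and Ly6g6c, with only 6, 2 and 4 reads in NZB. Ly6g6e, of the Ly6 family of small cysteine-rich surface proteins, was at 94.3 normalised reads in B6, 33.8 in v6.5, 105 and 59.6 in NOD and 623 in NZB. NZB was 6.60 times B6 and 7.56 times the NOD mean. The log2 fold change of NOD against NZB was -2.96 ± 0.70 in limma (adjusted p = 0.113), -2.94 in edgeR (adjusted p = 0.000138) and -2.96 in DESeq2 (adjusted p = 0.00431). In NZB against B6 it was 2.71 ± 0.80 in limma (adjusted p = 0.263) and 2.72 in edgeR (adjusted p = 0.0245).

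Ddah2, of the family that breaks down methylated arginines that inhibit nitric oxide synthase, varied little outside NZB. It was at 339 in B6, 335 in v6.5, 358 and 352 in NOD and 1178 in NZB. The 4 other libraries lay within a narrow band, and NZB was 3.47 times B6. In NZB against B6 its log2 fold change was 1.79 (95% interval 0.66 to 2.93), and it was -1.73 (-2.71 to -0.75) in NOD against NZB, with limma adjusted p of 0.248 and 0.159. In edgeR the adjusted p of the second was 0.0107.

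Sapcd1, at the start of the stretch, was at 9.85 in B6, 6.76 in v6.5, 7.62 and 6.30 in NOD and 40.1 in NZB. Its log2 fold change was -2.38 ± 1.08 in NOD against NZB (limma adjusted p = 0.62). Ly6g5b, another Ly6 member, had 30 reads in all and was at 16.5 in NZB and between 1.35 and 4.57 elsewhere. With 3 reads in B6, the ratio of NZB to B6 was 3.90 (exact 95% interval 1.12 to 20.9). Ly6g6d was at 29.9 in NZB but also at 25.7 in v6.5, and between 6.30 and 10.7 in the 3 others. Msh5, which stabilises meiotic crossovers, was at 36.0 in NZB and 32.0 in NOD replicate 1, so it did not set NZB apart.

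Within the same stretch, members between those genes did not follow. Clic1 was at 993 in NZB, inside the range of 657 to 1096 set by the NOD lines, and Abhd16a, a lipase, was at 178, inside the range of 135 to 204 of the other libraries. The fibroblast marker sum was also highest in NZB, and its part in these values was not tested. Vwa7 overlaps 767 bases of Sapcd1 on the opposite strand and had 17 reads in all.

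Outside that stretch, Snord52 was at 47.4 in NZB against 7.04 in B6, 9.47 in v6.5 and 12.2 and 16.96 in NOD. Its host 1110038B12Rik was at 1291 in NZB, but NOD replicate 1 was nearly as high at 1249.6, beside 804 in NOD replicate 5, 605 in B6 and 618 in v6.5. Vars was at 2951 in NZB, 2081 and 1012 in NOD, 1416 in B6 and 1187 in v6.5. LOC547349, which overlaps H2 class I genes on the same strand so that its reads are uncertain, was lowest in NZB, at 6.17 against 12.2 to 14.9 elsewhere.

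Between B6 and the library labelled v6.5 no member was called. The v6.5 library was the lowest of the 5 in 18 of the 49 tested members (36.7%), beside 19.5% of all genes tested, and the highest in 6 (12.2%), beside 18.3%. With limma, 0 of 49 members passed, beside 0.007% of all genes, and edgeR and DESeq2 also called 0, beside 0.231% and 0.198%. Unadjusted, 1 member (2.04%), Apom, and 315 of all genes (2.21%) had a limma p under 0.05. The median over members was -0.10, beside -0.02 over all genes. The matrix genes Tnxb and Col11a2 were among the 3 lowest in v6.5, with Tnxb at 1.35 in v6.5 and 7.04 in B6, and Col11a2, a cartilage collagen chain, at 8.12 and 23.9. Tnxb encodes a tenascin and had 29 reads in all, and NOD replicate 1 was highest at 13.7. Ly6g6e was the other one, at 33.8 and 94.3, with a log2 fold change of -1.45 (95% interval -3.21 to 0.31).

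Members that start back to back had log2 fold changes of the same sign in some pairs and of opposite sign in another, with wide errors. Slc39a7 and the retinoid receptor gene Rxrb, whose starts lie 122 bases apart on opposite strands, had log2 fold changes of 0.38 and 0.73 in NOD against B6 and 0.71 and 0.70 in NZB against B6. Their SE in NOD against B6 was 0.40 and 0.50. Skiv2l and Nelfe, a subunit of the negative elongation factor, lie 187 bases apart and were at -0.68 ± 0.55 and -0.45 ± 0.45 (SE) in NOD against B6. Stk19 and Dxo, 116 bases apart, were at 0.76 ± 1.05 and 0.40 ± 0.63. Csnk2b and Gpank1, only 49 bases apart, had opposite signs, at -0.40 ± 0.44 and 0.82 ± 0.65. Slc39a7 shares 83.9% of its 50-base stretches with the gene model Gm20427, and Gpank1 shares 30.8% with Gm5628. None of these members passed the limma threshold, and these comparisons share the B6 library. Movement alike or apart is therefore not established for any pair.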

How the data were processed

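Strand-kept libraries of poly-dT selected RNA were read once from 1 end over 50 bases. Per the labels, the authors used CASAVA 1.8.2, STAR 2.2.0c, HOMER and edgeR on the mm9 genome. The deposited signal values are reads per gene over exons, 1 row per gene, which the authors rescaled to 1 common total for all libraries. The Length column, another deposited value, gave levels per kb. In each library 100% of values under 3000 lay within 0.05 of a whole number of steps, so whole reads were recovered. Deposited columns of the authors' fold changes, p-values and FDR were not used.

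The plan named limma for normalized values, so limma-trend was fitted on log2(signal / TMM factor + 1), and edgeR's quasi-likelihood test and DESeq2 were run on the recovered reads. The versions were DESeq2 1.42.0, edgeR 4.0.16, limma 3.58.1 and R 4.3.3, and the steps were tested on simulated data. Genes were kept by filterByExpr. Adjusted p is Benjamini-Hochberg over all genes tested, threshold 0.05. The 4 comparisons between strains came from 1 fit of all 5 libraries with 1 mean per strain and 1 residual degree of freedom, from the NOD pair, and a lone library was taken to have the same spread as that pair. NOD against B6 with v6.5 had 2 residual degrees of freedom. Fold changes are on the log2(value + 1) scale, which understates changes of low genes. Intervals of ratios of reads are exact and cover counting error only.

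The members, the lists by role and the comparisons were chosen with earlier results of these data known. Named are all complement and TNF cluster members, the 10 highest members per kb, the 5 highest and 5 lowest in NOD against B6 and in NOD against B6 with v6.5, the 3 highest and 3 lowest in each other comparison, and any member called. Agpat1, Nfkbil1, Neu1, Pbx2, Ddah2, Msh5, Abhd16a, Snord52, Vwa7, the untested members outside the complement and TNF lists and the pairs that start back to back were added after their values were seen. Alternatives were another pseudocount, filter, scaling, tool, set of libraries and reference library.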

Additional observations from a re-analysis of the deposited data

How the results depend on the processing

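The members called by limma, 0 in each direction in all 5 comparisons, changed in number under these settings. With deposited totals and no TMM, 2 rose in NOD against B6 (Apom and C2), 1 in NZB against B6 (Ly6g6e) and 2 in NOD against B6 with v6.5 (C4a and C2). Of all 14280 genes tested, 1195 were then called in either direction in NOD against B6 and 132 in NZB against B6. Totals without Rn45s and Rmrp gave 1 higher in NOD against B6 with v6.5 (C2), and so did DESeq2 (1, C2), beside 2234 of 13172 genes in DESeq2. In NOD against NZB, a minimum of 50 reads in all gave 1 lower (Ly6g6e, limma adjusted p = 0.0267), beside 211 of 13454 genes called. DESeq2 gave 1 there and edgeR 2, beside 213 of 13172 and 368 of 14280 genes. In NZB against B6 edgeR gave 1 higher, beside 292 of 14280. With no filter 3 were lower in NOD against B6, 1 in NOD against NZB and 3 in NZB against B6. In v6.5 against B6, 1 was higher and 1 lower. All were members with 1 to 6 reads in all (Btnl6, BC051537, Aif1 and Cyp21a1). Calls over all 24016 genes then numbered 1667 in NOD against B6, in place of 447 of 14280. They numbered 1280 in NOD against NZB and 2064 in NZB against B6. Leaving out 1 library gave 0 to 1 higher and 0 to 1 lower in NOD against B6 with v6.5 (C2 and Notch4, both without NOD replicate 5). In the fit by strain, leaving out a NOD line leaves no residual degrees of freedom and so values without a test.

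Directions reversed with deposited totals for Zbtb12 (0.033) and Skiv2l (0.092) in NOD against B6 and for C4a (0.53) and Lst1 (0.27) in v6.5 against B6, for C4a (0.018) there with totals without Rn45s and Rmrp, and for Lst1 in NOD against B6 with v6.5, which ranged from -0.016 (without NOD replicate 5) to 1.16 (without NOD replicate 1). Signs also changed, in values with no test, for Lst1 in NOD against B6 (-0.18) and C2 in NOD against NZB (0.31) without NOD replicate 5, and for C4a in NOD against NZB (-0.27) without NOD replicate 1. The median of the members in v6.5 against B6 was 0.55 with deposited totals. The cause was not tested beyond the scaling itself. With v6.5 in place of B6, an alternative chosen after seeing the data, the counts of called members stayed at 0 and the log2 fold changes recomputed kept their sign, but in NOD Ltb went from 2.34 to 0.41, Notch4 from -2.05 to -1.17 and Apom, whose fitted value depends on the pseudocount, from 3.92 to 0.96. No paired analysis was possible because no label ties one library to another. Depth limits the 31 members that were not tested, and a group of 1 library limits every comparison but NOD against B6 with v6.5.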
